A study of Mus musculus with 4 samples.

Results

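The 10 genes described here are expressed by T cells of the mouse epidermis: the T cell receptor complex genes Cd3e, Cd3g, Cd3d, Cd247 and Trdc, and the lymphocyte genes Ptprc, Thy1, Cd7, Fxyd5 and Ctla2a. They were chosen by name, with earlier results of these data known, and all 10 were found among the 56493 genes of the deposited table. RNA came from dorsal epidermis that had been separated from the dermis of shaved skin with sodium thiocyanate. The conditional knockout (cKO) group, with 2 libraries, came from mice with floxed Stim1 and Stim2 that also carry K14-Cre, in which the keratin 14 promoter drives Cre. The control group, also with 2 libraries, came from mice with the same floxed alleles (F/F in the labels). Strain, sex and age are not given in the sources used here, nor is whether the replicates came from separate mice, so p-values measure only the spread between these samples. The comparison asked how loss of both STIM proteins from keratin 14-expressing epithelium changes the RNA of the epidermis.

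Mouse epidermis holds dendritic epidermal T cells, gamma-delta T cells that settle there before birth, carry a nearly invariant receptor and spread dendrites between keratinocytes. The gamma and delta chains bind the ligand and have almost no signalling tail of their own. CD3 epsilon, gamma, delta and zeta carry the tyrosine motifs that the kinases LCK and ZAP70 use to pass the signal on, and part of that signal is calcium entry through STIM-gated channels. The keratin 14 promoter is active in basal keratinocytes and other stratified epithelia, and T cells are not a site of its activity. In whole epidermis, fewer T cells and less RNA per T cell cannot be told apart.

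The libraries were shallow, with 118858 to 322426 counts. A gene with 0 counts in a library could still be present at up to 3 counts, which is 9.58 to 33.7 CPM (the normalised count, for which library sizes were scaled with TMM). The depth was lowest in cKO replicate 2, where a single count was worth 11.2 CPM. Only counting error enters such limits and the intervals given further on. Of the targeted genes, Stim1 had counts of 23 and 6 in cKO against 24 and 62 in control (log2 fold change -0.98, edgeR adjusted p 0.671), and Stim2 had 0 and 1 against 3 and 18 and was under the count filter. For both genes each cKO value was below each control value in CPM. Reads of a 3' kit come mostly from transcript ends, and the floxed exons are not given in the sources used here, so these counts may not read the deletion. Keratinocyte markers were present in all libraries, with a summed level of 13520 to 16004 CPM in cKO and 11329 to 14549 CPM in control. The fibroblast and macrophage lists stood apart in cKO replicate 2, at 787 and 371 CPM, against 52.6 and 28.3 CPM in cKO replicate 1.

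Cd3g, Cd3d and Cd3e lie side by side. Cd3g (chromosome 9, 44880870 to 44891729, minus strand), Cd3d (44893084 to 44898637, plus strand) and Cd3e (44910038 to 44920925, minus strand) span 40056 bases in the coordinates of the deposited table, whose build is GRCm39 per the submitters' processing notes. Cd3g and Cd3d point away from each other across a gap of 1354 bases. The windows around their starts are shown because these genes are neighbours that encode chains of one complex, and that of Fxyd5 because it had the smallest unadjusted p of the members. Each window runs from 250 bases before to 50 bases after the start and comes from RefSeq on GRCm38.p6: chr9:44980382-44980681 for Cd3g (minus strand), chr9:44981536-44981835 for Cd3d (plus strand), chr9:45009562-45009861 for Cd3e (minus strand) and chr7:31042282-31042581 for Fxyd5 (minus strand). Capitals mark matches, on either strand, to GGAAA (the core bound by the calcium-regulated NFAT factors), GGAAG (a core of ETS factors) and TGTGGT (a RUNX site), letters chosen after the counts were seen.
Cd3g: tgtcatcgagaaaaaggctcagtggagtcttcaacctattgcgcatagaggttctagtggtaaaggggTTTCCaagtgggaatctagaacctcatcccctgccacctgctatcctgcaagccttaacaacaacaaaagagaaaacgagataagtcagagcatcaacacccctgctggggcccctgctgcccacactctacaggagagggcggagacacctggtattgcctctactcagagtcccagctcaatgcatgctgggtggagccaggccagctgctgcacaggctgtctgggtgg
Cd3d: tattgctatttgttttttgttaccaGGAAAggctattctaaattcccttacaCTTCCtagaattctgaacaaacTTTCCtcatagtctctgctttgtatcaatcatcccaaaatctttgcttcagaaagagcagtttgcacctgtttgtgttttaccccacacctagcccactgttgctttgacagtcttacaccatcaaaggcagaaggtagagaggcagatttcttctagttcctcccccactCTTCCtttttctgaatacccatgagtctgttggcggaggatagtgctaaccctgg
Cd3e: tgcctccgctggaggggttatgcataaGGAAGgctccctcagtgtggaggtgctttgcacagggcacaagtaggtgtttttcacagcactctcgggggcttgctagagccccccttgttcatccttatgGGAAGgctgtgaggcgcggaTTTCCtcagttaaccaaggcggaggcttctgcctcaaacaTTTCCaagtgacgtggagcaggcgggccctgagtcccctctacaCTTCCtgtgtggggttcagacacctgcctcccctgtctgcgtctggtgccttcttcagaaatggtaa
Fxyd5: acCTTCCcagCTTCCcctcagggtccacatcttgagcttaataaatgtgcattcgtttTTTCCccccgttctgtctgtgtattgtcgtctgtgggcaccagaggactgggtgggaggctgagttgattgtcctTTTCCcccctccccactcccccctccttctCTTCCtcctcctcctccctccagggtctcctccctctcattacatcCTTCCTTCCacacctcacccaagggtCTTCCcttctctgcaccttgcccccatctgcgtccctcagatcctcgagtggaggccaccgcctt
The Cd3g window held 1 GGAAA match and 0 GGAAG matches, Cd3d held 2 and 2, Cd3e held 2 and 3, and Fxyd5 held 2 and 6. Matches shared 1 base in the Fxyd5 window and did not overlap in the CD3 windows. Among all 32851 windows of this length, 61.3% held GGAAA, 71.4% held GGAAG and 16.8% held TGTGGT. The 9 windows listed for 7 of the 10 members (Cd3e, Cd3g, Cd3d, Cd247, Ptprc, Fxyd5 and Ctla2a) held GGAAA in 8 cases, GGAAG in 8 and TGTGGT in 0. The windows of Ptprc overlap each other, as do those of Ctla2a, so some matches were counted in more than 1 window. Such matches describe letters and say nothing about binding.

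The 5 receptor complex genes together had 15 and 11 counts in cKO replicates 1 and 2, and 28 and 51 in control replicates 1 and 2. In CPM these sums were 60.7 and 124 in cKO and 149 and 163 in control, so both cKO libraries were below both controls. These sums weigh mostly Cd3g and Cd3d, each of which overlapped between the groups when taken alone. The group means were 92.1 ± 44.5 CPM (SD, n = 2) and 156 ± 9.51 CPM (SD, n = 2).

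Cd3g, the gamma chain of CD3, had counts of 8 and 8 in cKO against 15 and 23 in control. In CPM it was at 32.3 and 89.9 in cKO and at 80.04 and 73.4 in control, so the groups overlapped. It was the only gene of the complex to pass the count filter, with a log2 fold change of -0.48 ± 0.70 (SE; edgeR adjusted p 0.965). The sign rests on cKO replicate 1, since the value was 0.19 without that library. Cd3d, the delta chain, which mouse gamma-delta receptors largely do without, had counts of 6 and 3 in cKO against 5 and 13 in control. Its levels of 24.3 and 33.7 CPM in cKO overlapped with 26.7 and 41.5 CPM in control.

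Cd3e, the epsilon chain that pairs with CD3 gamma and with CD3 delta, had counts of 1 and 0 in cKO against 4 and 5 in control. Both cKO values, 4.04 and 0 CPM, were below the control values of 21.3 and 16.0 CPM. Pooled over libraries, with the TMM-scaled library sizes summed, the ratio of cKO to control was 0.165, with an exact 95% interval of 0.00377 to 1.19 that includes 1. Cd247 (chromosome 1, 165616250 to 165704846, plus strand), which encodes CD3 zeta, was at 0 counts in each cKO library, with 2 and 1 in control. Both groups were at or under the limit of 3 counts, so no difference was detectable at this depth. Exons of Cd247 share 3007 bases with Pou2f1 on the opposite strand, and the sources used here do not say if strand was used.

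Trdc (chromosome 14, 54380308 to 54386325, plus strand) encodes the constant region of the delta chain and is the member most specific to gamma-delta T cells. No cKO library had a count of it (0 and 0), and the controls had 2 and 9, or 10.7 and 28.7 CPM. The pooled ratio of cKO to control was 0, with an exact 95% interval that reaches up to 0.593. That interval includes counting error in both groups and allows a smaller difference than the bound that follows. Set against 3 counts over the cKO group, and taking the 11 control counts without error, Trdc would be at least 2.46-fold lower in cKO. The bound moved with single libraries: without cKO replicate 1 it was 0.652, which is under 1 and so no bound, without control replicate 1 it was 3.22, without cKO replicate 2 it was 1.81, and without control replicate 2 the control count of 2 was itself under the limit. Other gene segments of the gamma-delta receptor were still counted in cKO. Trdv4, a variable segment of the delta chain used by epidermal T cells, had counts of 4 and 1 in cKO against 2 and 6 in control, with overlapping levels of 16.2 and 11.2 against 10.7 and 19.2 CPM. Trgc1, a constant region of the gamma chain, had 4 and 1 counts against 7 and 5, and its levels of 16.2 and 11.2 against 37.4 and 15.97 CPM overlapped narrowly.

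Besides Trdc, 24 gamma-delta receptor segments were listed, of which 6 were counted at least once and 0 were tested. Their summed counts were 8 and 3 in cKO replicates 1 and 2 and 14 and 18 in control, so cKO replicate 2 was at the limit of 3 counts. In CPM the sum was 32.3 and 33.7 in cKO and 74.7 and 57.5 in control, without overlap. Taken singly, 1 of the 24 segments was below both controls in both cKO libraries and 0 were above. Among genes with a count in any library, 15% were below and 12.2% above in this way. Trgc4, another gamma constant region, had counts of 0 and 1 in cKO against 4 and 3 in control, and its levels overlapped. The listed variable segments of the gamma chain, Trgv1 to Trgv7, named for their values, were at 0 in all 4 libraries, controls included. Of the alpha-beta T cell list, 6 of 10 genes had a count, among them the beta chain constant regions, whose transcripts gamma-delta T cells can also make. Trbc2 had counts of 7 and 5 in cKO against 19 and 19 in control (log2 fold change -1.04, adjusted p 0.809), and Trbc1 had 1 and 1 against 10 and 6, while Trac, Cd4, Cd8a and Foxp3 were at 0 in all 4 libraries. Cd6, a surface receptor of T cells, had 0 and 2 against 1 and 0. The 10 genes of the alpha-beta list summed to 36.4 and 89.9 CPM in cKO and 171 and 83.03 CPM in control, so the groups overlapped. Taken singly, 3 of these 10 genes were below both controls in both cKO libraries and 0 were above, against the same shares of 15% and 12.2%.

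**Figure D1:**
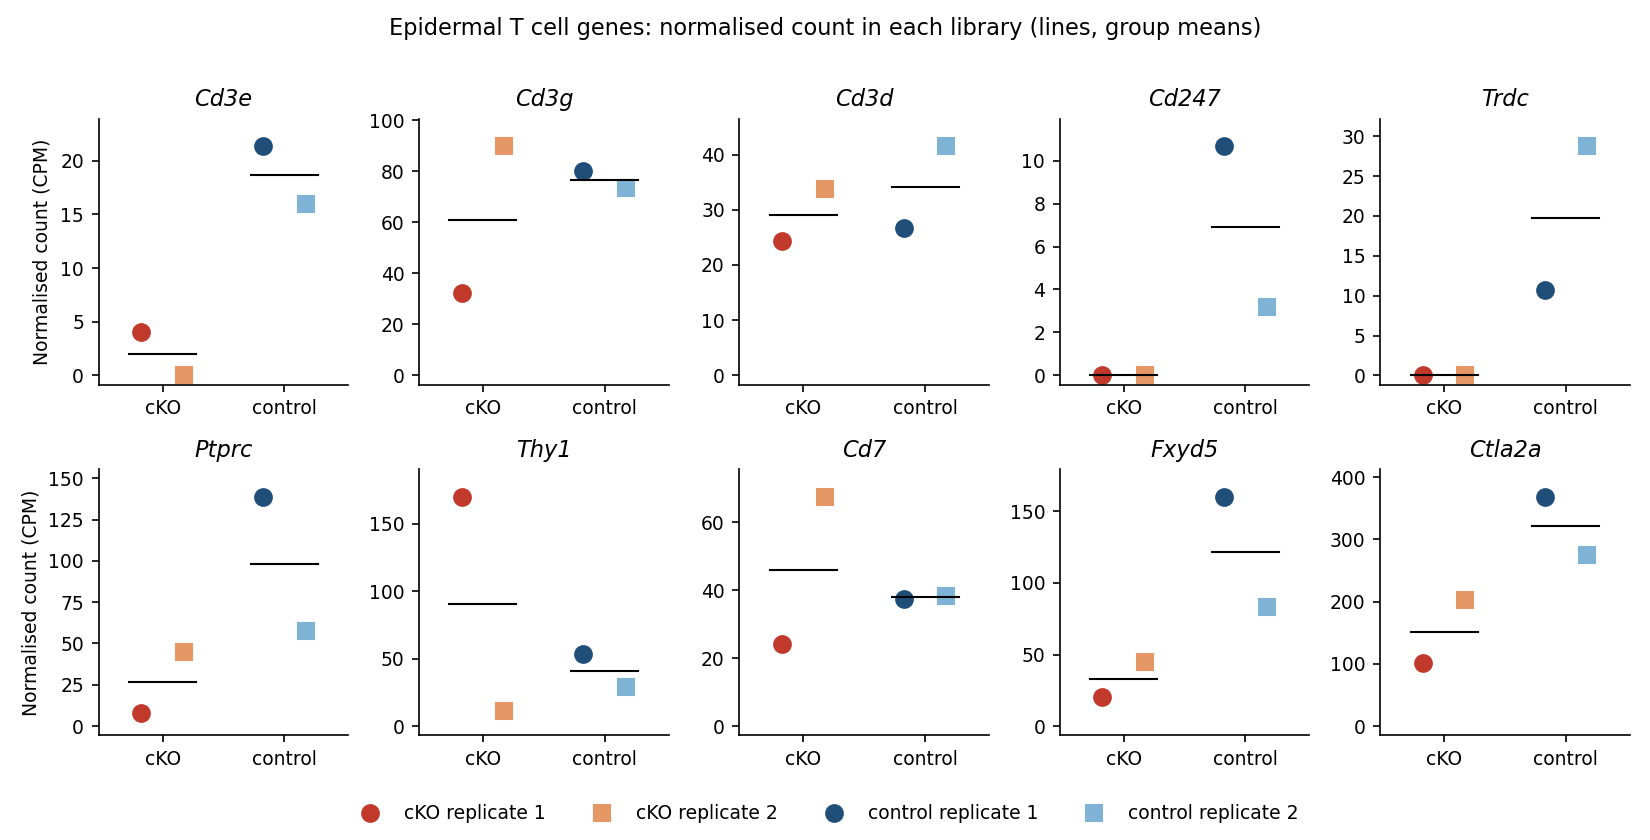
Normalised count (CPM) of each of the 10 members in each library, cKO at the left and control at the right of each panel, with black lines at the group means of 2 libraries. Trdc and Cd247 are at 0 in both cKO libraries, Ptprc, Fxyd5 and Ctla2a are lower in both cKO libraries than in both controls, and Thy1 is highest in cKO replicate 1 at 170 CPM and lowest in cKO replicate 2 at 11.2 CPM.

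Among the other lymphocyte genes, Ptprc, Fxyd5 and Ctla2a had lower values in both cKO libraries than in both controls, at 27.03%, 26.8% and 47.2% of the control mean, but none passed the test. Ptprc (chromosome 1, 137990599 to 138103446, minus strand) encodes CD45, the phosphatase on the surface of all leukocytes that keeps LCK ready for receptor signalling. It had counts of 2 and 4 in cKO against 26 and 18 in control, or 8.09 and 44.95 CPM against 139 and 57.5 CPM. The log2 fold change was -2.20 ± 0.90 (SE; edgeR unadjusted p 0.0290, adjusted p 0.494). Without cKO replicate 2 it was -3.47 and passed the threshold (adjusted p 0.0396), without cKO replicate 1 it was -1.11, and over all alternatives the adjusted p ran from 0.0396 to 0.9997. Ptprc marks all leukocytes, so it does not separate T cells from Langerhans cells.

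Fxyd5 (chromosome 7, 30732147 to 30741906, minus strand) encodes dysadherin, a small membrane protein that modulates the sodium pump and is made by lymphocytes and by other cells. It had counts of 5 and 4 in cKO against 30 and 26 in control. Both cKO levels, 20.2 and 44.95 CPM, were below both control levels, 160.1 and 83.03 CPM. The log2 fold change was -2.03 ± 0.72 (SE; edgeR unadjusted p 0.0145, adjusted p 0.377). Of 11 other FXYD genes and sodium pump subunits listed, 4 were tested, 3 with a log2 fold change above 0 and 1 below, and 0 were called. Fxyd3, a sodium pump regulator of epithelia, had counts of 60 and 39 in cKO against 80 and 72 in control (log2 fold change 0.03, adjusted p 0.997), while Atp1b3, a subunit of the pump, was at -0.43 (adjusted p 0.905). Among the FXYD genes under the filter, named for their values, Fxyd6 had 0 and 0 counts against 6 and 6, lower in both cKO libraries as Fxyd5 was, and Fxyd1 had 1 and 2 against 11 and 3, with overlap in CPM.

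Ctla2a (chromosome 13, 61081969 to 61084439, minus strand) encodes an inhibitor of cathepsin-type proteases made by activated T cells and mast cells. It had counts of 25 and 18 in cKO against 69 and 86 in control, the most counts of any member in the controls. The levels were 101 and 202 CPM in cKO and 368 and 275 CPM in control. The log2 fold change was -1.15 ± 0.49 (SE; edgeR unadjusted p 0.0349, adjusted p 0.508). Its neighbour Ctla2b is 93.4% identical over 707 bases of transcript and had counts of 2 and 1 in cKO against 6 and 3 in control. Gm49391 shares 343 exon bases with Ctla2a on the same strand and had 5 and 1 counts against 8 and 7. How the counting divided reads between such genes is not stated, so the value of Ctla2a is uncertain to that extent. Ctla2a and Ctla2b together were at 109 and 214 CPM in cKO and 400.2 and 284 CPM in control.

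In Thy1 and Cd7 the groups overlapped. Thy1 (chromosome 9, 43954681 to 43959876, plus strand), a lipid-anchored surface protein of mouse T cells that fibroblasts and neurons also make, had counts of 42 and 1 in cKO against 10 and 9 in control. The 2 cKO libraries lay on either side of the controls, at 170 and 11.2 CPM against 53.4 and 28.7 CPM. The log2 fold change of 1.36 ± 0.84 (SE; edgeR adjusted p 0.747), became -1.82 without cKO replicate 1, so the direction of Thy1 was decided by 1 library. The fibroblast list, whose cells can express Thy1, was at its lowest in that library (52.6 CPM). It was at its highest in cKO replicate 2 (787 CPM), where Thy1 had 1 count. Whether fibroblasts account for part of the Thy1 values was not tested. Cd7 (chromosome 11, 120927573 to 120930244, minus strand), an immunoglobulin-family protein of T and natural killer cells, had counts of 6 and 6 in cKO against 7 and 12 in control. Its levels of 24.3 and 67.4 CPM in cKO enclosed those of the controls, 37.4 and 38.3 CPM, and its pooled ratio was 0.940 with an exact 95% interval of 0.416 to 2.04.

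**Figure D2:**
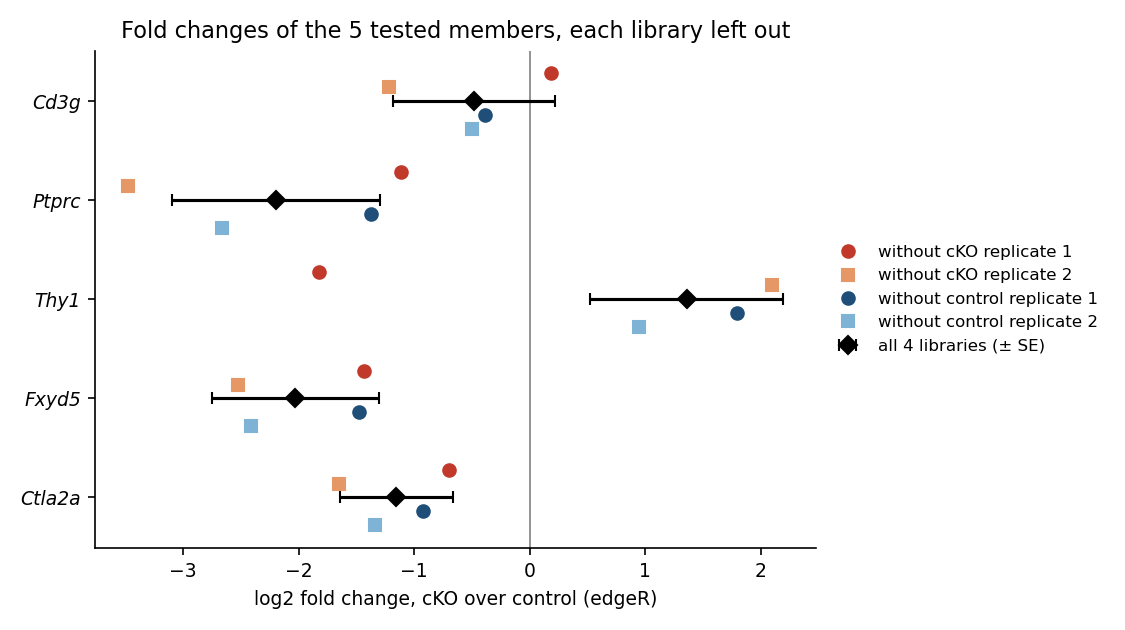
Log2 fold change of cKO over control from edgeR for the 5 members that passed the count filter; diamonds with bars are the value from 4 libraries ± its standard error, and coloured points are the values with 1 library left out. Ptprc, Fxyd5 and Ctla2a stay below 0 in these fits, while Thy1 goes from 1.36 to -1.82 and Cd3g from -0.48 to 0.19 without cKO replicate 1.

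Across the members, 5 of 10 passed the count filter (1 of the 5 receptor complex genes and 4 of the 5 others), and 0 of these 5 were called with edgeR at an adjusted p under 0.05. The background was 0.848% of 4243 tested genes called (0.189% lower, 0.66% higher). At an unadjusted p under 0.05, 3 of the 5 were lower, where 4.17% of tested genes were. DESeq2 and limma-voom also called 0. Of the 5 tested, 4 had a log2 fold change below 0, as did 49.6% of all tested genes. Their median was -1.15, against 0.01 over all tested genes. A gene as sparse as these passes the filter more readily when 1 group is high, so these figures describe the tested members and are not evidence of a shift of the list.

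Both cKO values were below both control values in 6 of the 10 members (Cd3e, Cd247, Trdc, Ptprc, Fxyd5 and Ctla2a) and above both in 0. Among the 17179 genes with a count in any library, 15% were below and 12.2% above in this way, and among tested genes 19.6% and 18.9%. The members were chosen with earlier results of these data known, so such counts are not evidence of a shift of the list. With each library left out in turn the count of lower members was 7 without cKO replicate 1 (29.4% of genes with a count), 9 without cKO replicate 2 (24.8%), 7 without control replicate 1 (33.9%) and 6 without control replicate 2 (31%). Scaled by library totals alone, the count was 8, with Cd3g and Cd3d added, where 19.4% of genes with a count and 28.8% of tested genes were lower. That scaling shifted the median log2 fold change of all tested genes to -0.24.

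Summed over the 10 members, the counts were 95 and 44 in cKO and 170 and 202 in control. As a share of all counts this was 0.0337% in cKO replicate 1 (0.0275% to 0.0411%, 95% Wilson interval) and 0.037% in replicate 2 (0.0276% to 0.0497%). The controls were at 0.0849% (replicate 1, 0.073% to 0.0986%) and 0.0627% (replicate 2, 0.0546% to 0.0719%). The mean normalised sum was 439 ± 78.04 CPM (SD, n = 2) for cKO against 776 ± 185 CPM (SD, n = 2) for control, or 56.6%. Each cKO sum, 384 and 494 CPM, was below each control sum, 907 and 645 CPM. Ctla2a alone made up 25 and 18 of the cKO counts and 69 and 86 of the control counts, so this sum weighs mostly the genes with the most counts. No test was made of the sum, since 2 libraries against 2 cannot give an exact two-sided permutation p below 0.333.

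**Figure D3:**
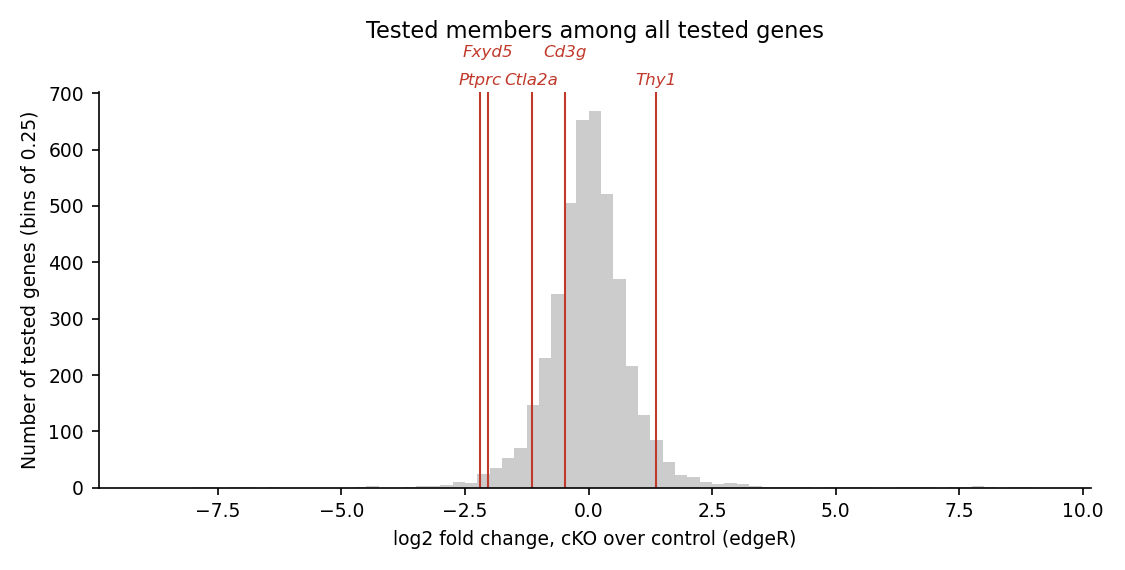
Number of tested genes in bins of 0.25 on the log2 fold change of cKO over control, with red lines at the 5 tested members. Ptprc (-2.20) and Fxyd5 (-2.03) lie in the lower tail, Cd3g (-0.48) near the centre and Thy1 (1.36) on the upper side.

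Genes that act with the receptor were counted from lists. Of 23 genes of receptor signalling, 21 had a count, 3 were tested and 0 were called. All 3 had values below 0, and as with the members, sparse genes pass the filter more readily when 1 group is high: Plcg1, the phospholipase that releases stored calcium, at -0.37 (edgeR adjusted p 0.968), Ptpn6, an inhibitory phosphatase, at -1.04 (adjusted p 0.884), and Trat1, an adaptor bound to the receptor complex, at -2.30 (adjusted p 0.597). Trat1 had counts of 4 and 0 in cKO against 9 and 20 in control, without overlap. Over the 23 genes, 6 were below both controls in both cKO libraries: Zap70, Skap1, Fyb, Plcg1, Ptpn6 and Trat1. Above both controls were 3, Rasgrp1, Csk and Sit1. Zap70, Skap1 and Fyb were under the count filter, as were the 3 higher genes. Among all genes with a count in any library, 15% were below and 12.2% above in this way. The differences between these genes of the list were not tested. The list summed to 279 and 326 CPM in cKO and 411 and 367 CPM in control. Of 19 cytotoxic and effector genes, 14 had a count, 2 were tested and 0 were called. Nkg7, a protein of cytotoxic granules, had 15 and 11 counts against 19 and 59 (log2 fold change -0.78, adjusted p 0.829), and Fcer1g, a signalling chain shared with myeloid cells, had 18 and 23 against 40 and 58 (-0.39, adjusted p 0.965). Xcl1, a chemokine, had 0 and 7 counts against 8 and 4. This list summed to 162 and 551 CPM in cKO and 454 and 473 CPM in control, with overlap. Taken singly, 4 of its 19 genes were below both controls in both cKO libraries and 0 were above, against the shares of 15% and 12.2%. The lower ones, Klrk1, Hcst, Prf1 and Areg, were all under the count filter. Of 16 homing and cytokine receptor genes, 13 had a count and 1 was tested. That gene was Il7r, the receptor for a survival cytokine of lymphocytes, with counts of 12 and 6 in cKO against 2 and 7 in control (log2 fold change 1.67, adjusted p 0.716). Jaml and Itgae had 3 and 3 against 9 and 1, and 9 and 0 against 0 and 7. The sum of this list was 133 and 157 CPM in cKO and 117 and 115 CPM in control, above both controls in both cKO libraries.

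Markers of other cells showed which of these the epidermis held. The Langerhans cell list had counts for 10 of 10 genes, and 0 of the 4 tested genes were called, all with values below 0: Cd74 had 95 and 69 counts against 231 and 239 (log2 fold change -0.80, adjusted p 0.717), H2-Aa was at -0.38 (adjusted p 0.962) and H2-Ab1 at -0.33 (adjusted p 0.976). Its sum was 1092 and 3001 CPM in cKO and 3885 and 2146 CPM in control, so the groups overlapped. Cd207 encodes langerin, the defining marker, and is named because of its values: its counts of 1 and 0 in cKO against 8 and 10 in control put both cKO libraries lower, as for Ptprc. Of the 10 genes of this list, 2 were below both controls in both cKO libraries and 0 were above. The shares among genes with a count in any library were 15% and 12.2%. The list of 20 pan-leukocyte genes had 6 tested, 3 above and 3 below 0, and 0 called. Cd52, Laptm5 and Arhgdib were at 0.01, -0.71 and 0.51 (adjusted p 0.998, 0.817 and 0.902), and the list summed to 534 and 899 CPM in cKO and 811 and 664 CPM in control. Single genes of this list lay on both sides: 5 of 20 were below both controls in both cKO libraries (Coro1a, Laptm5, Lcp1, Lsp1 and Arhgap45) and 4 were above (Gmfg, Dock2, Rac2 and Hcls1), where 15% and 12.2% of genes with a count were. Of the tested genes among these, named for their values, Coro1a was at -1.83 (adjusted p 0.597) and Lcp1 at -1.35 (adjusted p 0.737). Whether Langerhans cells account for part of the Ptprc difference was not tested.

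Some of the cells that can also express Thy1, Fxyd5 or Ctla2a were near the limit of detection or varied by library. Which cells the Fxyd5 and Ctla2a counts came from was not tested. The endothelial list had counts of 1 and 0 in cKO against 2 and 2 in control over 11 genes, with 7 genes including Cdh5 and Kdr at 0 throughout. The mast cell list had 0 and 6 counts against 1 and 2, with Cpa3 at 0 throughout, and Mcpt4, Tpsb2 and Cma1 had 3, 2 and 1 counts in cKO replicate 2. The natural killer list had 0 and 0 counts against 0 and 2, the B cell list 4 and 1 against 4 and 9 (mostly Ighm), and the neutrophil list 0 and 2 against 1 and 1 (all Retnlg). The macrophage list, led by Lyz2, C1qb and C1qa, had 7 and 33 counts against 22 and 19. The fibroblast list, led by Col3a1, Sparc and Col1a1, had 13 and 70 against 54 and 50, and the melanocyte list, led by Dct, had 34 and 39 against 62 and 31. In the 3 tested fibroblast genes and in Dct 0 calls were made. The skeletal muscle list moved with the groups: it summed to 44.5 and 135 CPM in cKO and 1478 and 1047 CPM in control, and Tnnc2, Acta1, Myh4 and Pvalb were called lower (4 of 7 tested). The part of muscle or fibroblast carry-over in the T cell gene values was not tested.

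**Figure D4:**
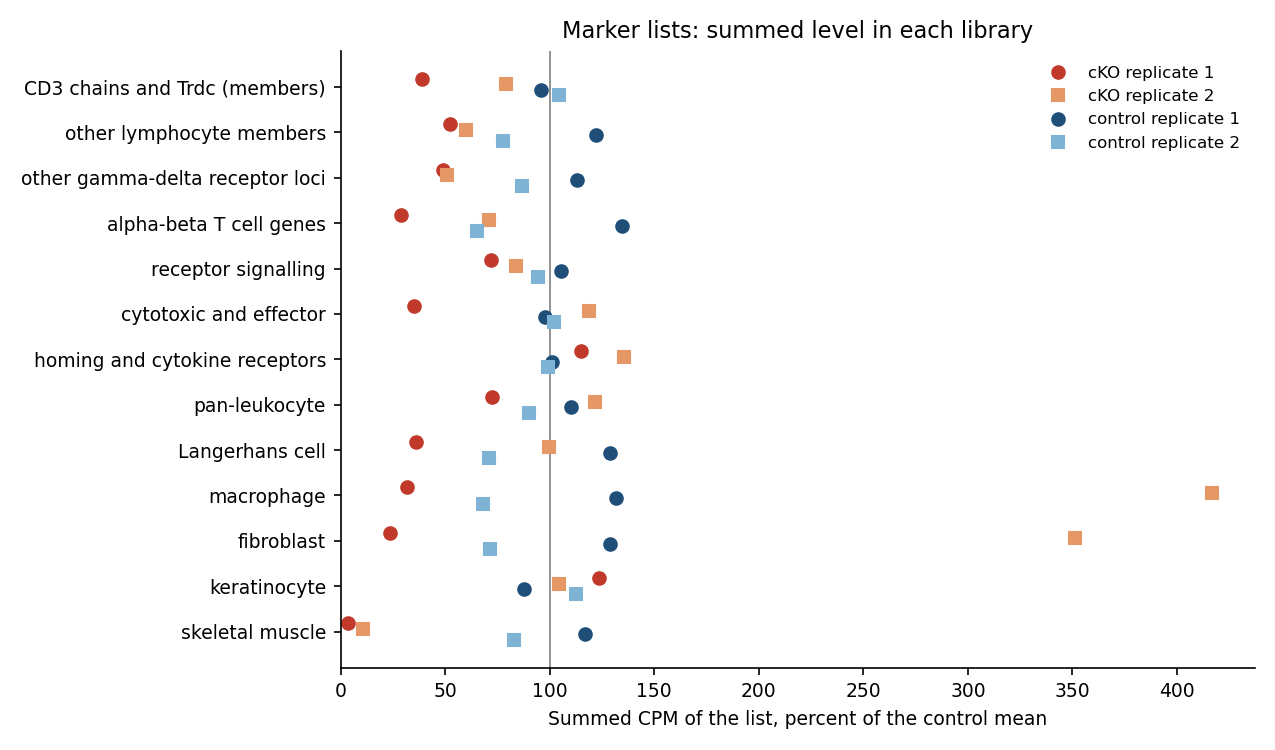
Summed CPM of 13 gene lists in each library as a percent of the mean of the 2 control libraries (grey line at 100). The member, gamma-delta locus, receptor signalling and skeletal muscle lists lie below both controls in both cKO libraries, the pan-leukocyte and Langerhans lists overlap, and the macrophage and fibroblast lists are highest in cKO replicate 2.

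The 5 other genes whose levels over the 4 libraries were closest to the sum of the receptor complex were Sarnp, Retreg2, Hnrnph1, Nenf and Atp6v0b. Their Euclidean distance to it was 0.129 to 0.248 in log2 CPM centred on each gene's mean, among 4066 tested genes whose mean was 10 CPM or more and that were counted in every library. Sarnp, the closest, was at 84.9 and 180 CPM in cKO and 213 and 211 CPM in control (log2 fold change -0.77, edgeR adjusted p 0.775). Atp6v0b, at a log2 fold change of -0.57, was not called either (adjusted p 0.858). The comparison rests on 4 libraries.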

How the data were processed

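Total RNA of epidermis was sequenced with a 3' kit (QIAseq UPX). The authors deposited raw counts per gene for 4 libraries. Per the submitters' processing notes, the tools were Trim Galore 0.6.7, Trimmomatic 0.39, cutadapt 3.7, STAR 2.7.10a and featureCounts 2.0.1, and the build was GRCm39. The use of molecular identifiers, strand and multiply aligned reads is not stated. Titles gave the genotype groups, of 2 libraries each.

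Genes were filtered with filterByExpr (minimum count 10, minimum total 15), which left 4243 genes with 87.6% of counts. edgeR 4.0.16 (R 4.3.3) fitted genotype to them with TMM factors of 0.833 to 1.12 and glmQLFTest, with Benjamini-Hochberg adjustment over all genes tested and a threshold of 0.05. CPM used the scaled library sizes of the filtered genes. Standard errors are the absolute log2 fold change over the square root of F. Members under the filter got counts and, where useful, a pooled ratio with an exact 95% interval. Copies were searched with blastn 2.17.0 in GENCODE M21 transcripts. The fit was tested on simulated data.

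The members and the 23 gene lists were chosen with earlier results of these data known. All members are named. From each other list the called genes and the 3 with the most counts are named where they had counts, except 1 gene that is not reported here, and others are said to have been singled out. The genes closest to the receptor complex follow the distance rule given with them. Alternatives were other scalings, filters, DESeq2 1.42.0, limma-voom (limma 3.58.1), glmQLFit with legacy set to FALSE, a replicate block and each library left out. A crossed block and a sum without Thy1 were added after seeing the data. No per-sample column of the table was left unused.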

Additional observations from a re-analysis of the deposited data

How the results depend on the processing

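For the 5 tested members, 40 of 40 fold changes under another scaling, filter, test or the replicate block kept their direction and their side of the threshold, and 17 of 20 with a library left out did. The log2 fold changes with a library left out ran from -1.22 to 0.19 for Cd3g, -3.47 to -1.11 for Ptprc, -1.82 to 2.10 for Thy1, -2.52 to -1.44 for Fxyd5 and -1.65 to -0.70 for Ctla2a. The reversals, Cd3g to 0.19 and Thy1 to -1.82, came without cKO replicate 1, and the cause was not tested. The number of members called ran from 0 to 1, and the 1 was Ptprc without cKO replicate 2. The log2 ratio of the summed level was -0.82, ran from -1.05 to -0.55 with a library left out, and was -1.08 without Thy1 (added after seeing the data). It was -1.10 with library totals and -1.04 for pooled counts.

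Genes called over the whole table, 28 higher and 8 lower, became 26 and 15 with library totals, 49 and 26 without a filter, 40 and 15 when genes were kept at 10 CPM or more on average, and 12 and 3 with limma-voom. With the replicate block they were 16 and 1, and the fold changes of Thy1 and Ptprc under the block were 0.73 and -2.15. The numbers are not known to pair samples: the differences between replicates 1 and 2 correlated at -0.20 across genes between the groups, and a block with crossed numbers, added after seeing the data, called 90 higher and 57 lower genes and 0 members. With a library left out the calls were 34 to 59 higher and 8 to 34 lower. Cd3d, Cd3e, Cd247, Trdc and Cd7 could be fitted only with other filters or fewer libraries. Without a filter, at 17179 genes, their log2 fold changes were -0.40, -2.53, -3.57, -5.16 and 0.01, and 0 were called. Depth limits what can be said of them, since 3 counts or fewer in a library cannot size a change.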

Other observations

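Keratinocytes make proteins that keep and select epidermal T cells, and 18 such genes were listed, of which 8 were tested, 4 above and 4 below 0, and 0 were called with edgeR. The list summed to 3445 and 3158 CPM in cKO and 3591 and 2999 CPM in control. Ccl27a, a skin-homing chemokine, was at a log2 fold change of 0.17 (adjusted p 0.992), Cxadr, the receptor that JAML on epidermal T cells binds, at 0.35 (adjusted p 0.936), and Cdh1, E-cadherin, at -0.37 (adjusted p 0.936). Skint1, which is needed for the selection of these T cells in the thymus, was singled out after its values were seen: its counts were 50 and 4 in cKO against 2 and 6 in control, or 202 and 44.95 CPM against 10.7 and 19.2 CPM, and was under the count filter. Skint5, singled out in the same way, had 23 and 2 counts against 34 and 89 (log2 fold change -1.81, adjusted p 0.272). Of 16 lymphocyte transcription factors, 5 were tested and 0 called. The leading ones, Rora, Bcl11b and Gata3, are also keratinocyte genes and were at 0.31, 0.55 and -0.75 (adjusted p 0.971, 0.838 and 0.764), with a list sum of 2285 and 1281 CPM in cKO and 1441 and 1699 CPM in control.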
